A study of Mus musculus with 4 samples.

Results

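The mRNAs of 8 bile duct and progenitor cell markers (Sox9, Sox4, Epcam, Cd24a, Prom1, Elf3, Ehf and Tspan8) were followed in mouse liver across 4 genotypes. They were chosen by gene symbol, and every probe set that the platform annotation gives to 1 of these symbols was used, which makes 27 of 45101 probe sets and 8 of 18194 genes. A probe set is a group of short probes on the array that together measure 1 transcript region. The genotypes were WT (mice without Cre), ΔS6 (both Rps6 alleles flanked by lox sites and deleted by an albumin-driven Cre), Alb-c-Myc (an albumin-driven c-Myc transgene without the deletion) and ΔS6:c-Myc (the deletion and the transgene together). All mice were 5 weeks old, of a mixed strain background and labelled male, and each array carried liver RNA combined from 3 mice of 1 genotype. The albumin promoter drives Cre in hepatoblasts, which give rise to hepatocytes and biliary cells, and the study describes the deletion as incomplete, so ΔS6 liver still holds cells with Rps6. Whether Alb-c-Myc mice also carried lox sites or Cre is not given in the sources used here. With 1 array per genotype there is no replicate, so differences below are values without a test and their error between mice is unknown.

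Bile ducts are lined by cholangiocytes, which form in late embryonic life when hepatoblasts next to the portal vein switch on Sox9 and build the ductal plate. In injured liver, small ductular cells that share markers of cholangiocytes and of progenitors spread out from the portal tracts, a change known as a ductular reaction. Among the 8 markers, Sox9 and Sox4 are HMG-box transcription factors needed for bile duct formation. Elf3 and Ehf are epithelial members of the Ets family of transcription factors. Epcam is an adhesion protein of epithelial cells, Cd24a a small sugar-coated protein held in the membrane by a lipid anchor, Prom1 (CD133) a protein of membrane protrusions, and Tspan8 a tetraspanin, which spans the membrane and organizes other proteins there. Mature hepatocytes carry little of most of them.

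The targeted gene and the arrays were examined first. All 9 probe sets that the annotation shares between Rps6 and the pseudogene Rps6-ps4 had lower values in ΔS6 than in WT (median log2 ratio -0.29), and for ΔS6:c-Myc against Alb-c-Myc the median was -1.76, with all 9 lower again. Of 2 probe sets that carry the symbol Rps6 and no other, 1 was lower and 1 higher. Probe set 1416142_at had log2 ratios of -0.79 and -2.48 in these comparisons, and 1453466_at went against the labels with 1.47 and 2.59. Whether these probes fall inside the stretch removed by Cre was not tested. Myc itself was measured at log2 values of 8.33 in WT, 8.89 in ΔS6, 11.68 in Alb-c-Myc liver and 11.37 in ΔS6:c-Myc liver. The WT array stood apart. It carried the X-inactivation RNA Xist at a log2 value of 11.84 against 5.88 to 6.33 on the other 3 arrays, against its male label. The Y-linked genes Eif2s3y, Kdm5d and Uty had 8.67, 7.70 and 7.73 on it, and 9.09, 8.14 and 7.79 in ΔS6. Each was within 2-fold of every other array, so Xist alone does not give the sex of the mice in this pool. Of 10 genes of exocrine pancreas, 9 were over 2-fold higher on the WT array than on the ΔS6 array. Counts of ΔS6 over WT are therefore also given against Alb-c-Myc, beside the members or, for the other gene lists, once after them. Hepatocyte genes marked all 4 arrays as liver, with albumin between 15.38 and 15.46.

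Most of the marker probe sets were higher in ΔS6 than in WT liver, and by large amounts. Of 27 probe sets, 19 were at least 2-fold higher and 0 were at least 2-fold lower. Of all 45037 probe sets other than controls, 5.18% were higher and 2.07% lower by that much. The median log2 ratio of the 27 was 2.43, against -0.07 over all probe sets. With each gene taken at its probe set of highest mean, 7 of 8 genes were at least 2-fold higher, against 7.24% of all genes. The exception was Ehf, for which that rule picks a probe set that went the other way. When Alb-c-Myc was the reference, 20 of 27 probe sets (5.07% of all) and 7 of 8 genes (7.0% of all) passed 2-fold in ΔS6. In whole liver, more cells of a type and more RNA per cell cannot be told apart. The 19 raised probe sets were designed from 11 known representative sequences (none is given for 1 probe set), so those of 1 gene are not all separate measurements.

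**Figure D1:**
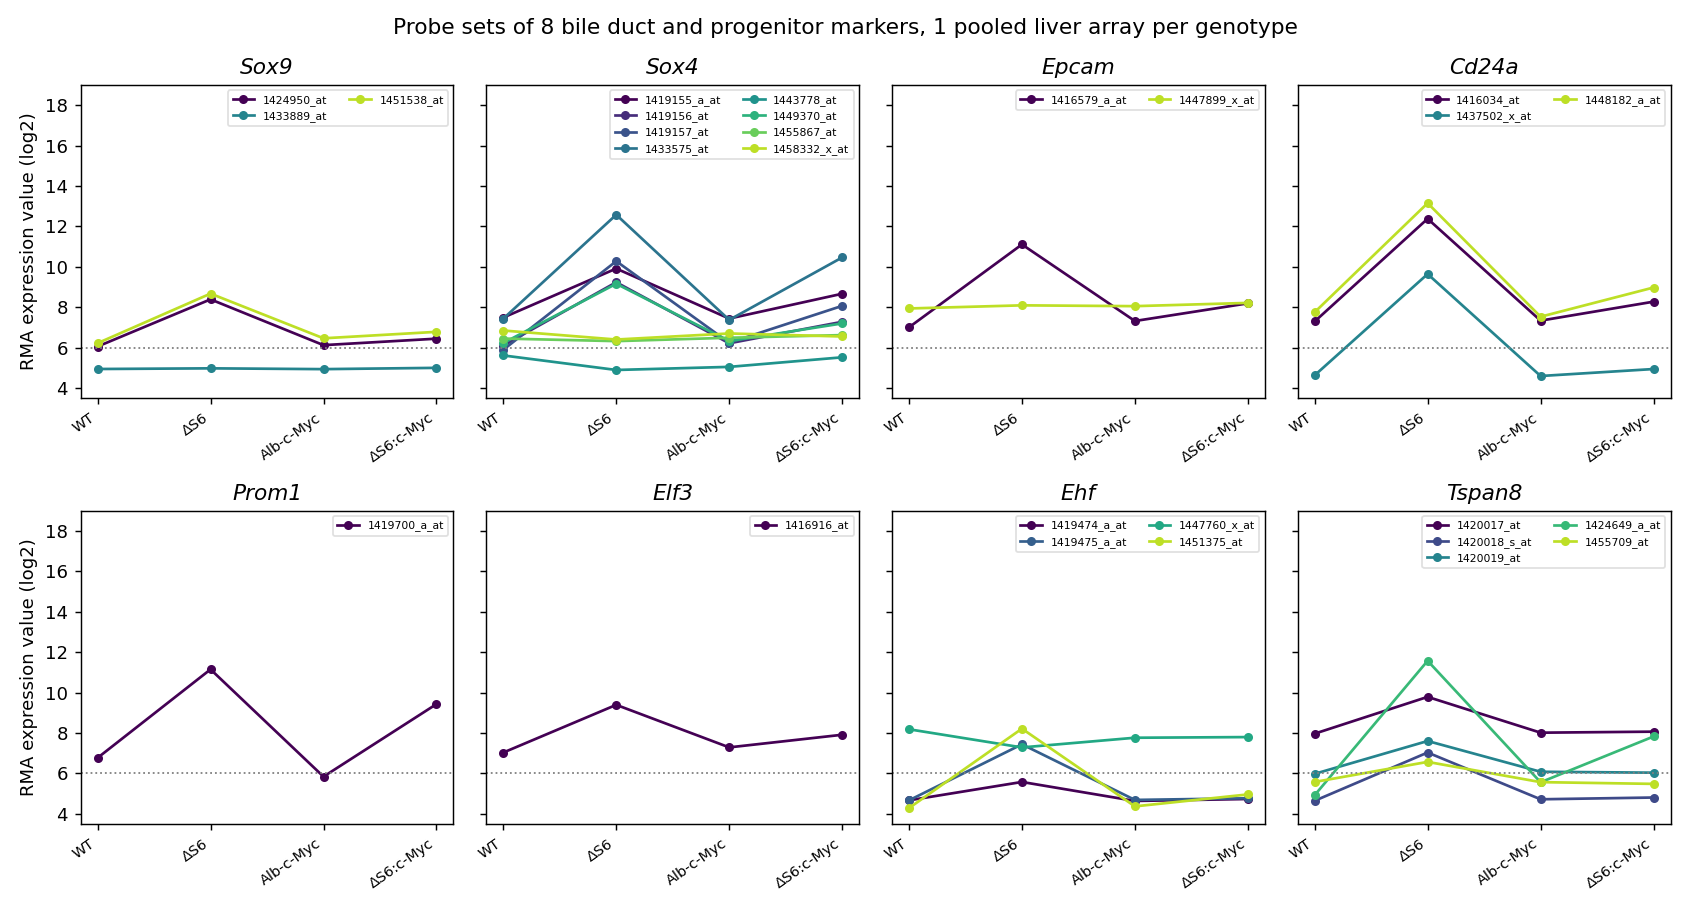
RMA expression values (log2, vertical axis) of all 27 probe sets of the 8 markers by array (horizontal axis, pooled RNA of 1 genotype each); each line is 1 probe set and the dotted line marks a log2 value of 6, below which a signal is called dim here. All 19 probe sets that passed 2-fold in ΔS6 over WT had their highest value on the ΔS6 array, while the other 8 were within 2-fold between ΔS6 and WT. The 19 were picked by their ΔS6 value, which in large part sets where their highest value lies.

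With the transgene alone, all 27 marker probe sets were within 2-fold of WT, Prom1 lying close to the lower limit. In Alb-c-Myc over WT, 0 of 27 probe sets were at least 2-fold higher or lower, where 0.284% and 0.246% of all probe sets were. With shares that small, the 0 of 27 does not set the markers apart from the rest of the array. The log2 ratios ran from -0.93 for Prom1 to 0.64 for the Tspan8 probe set 1424649_a_at, with a median of 0.04. In ΔS6:c-Myc liver the markers lay between these levels and those of ΔS6. Of the 27 probe sets, 20 lay at least 2-fold below their ΔS6 value in ΔS6:c-Myc (3.07% of all probe sets). These include all 19 raised ones, which were picked by their ΔS6 value, and of all 2333 probe sets raised in the same way 50.9% lay as far below it. Of the 19, 18 were still above both WT and Alb-c-Myc by some amount, the exception being 1420019_at of Tspan8. The share of all 2333 raised probe sets that were was not taken, so the 18 of 19 was not read as a property of the markers. Against WT, 8 of 27 were at least 2-fold higher (2.16% of all probe sets), and against Alb-c-Myc 7 of 27 (1.49%). By gene, 4 of 8 passed 2-fold against WT (3.0% of all genes) and 3 of 8 against Alb-c-Myc (1.99%).

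A probe set was said to stay high with the transgene when it passed 2-fold in ΔS6 over WT and, in ΔS6:c-Myc, 2-fold over WT and over Alb-c-Myc alike. This held for 7 of the 19 raised probe sets, which belong to Sox4 (4), Prom1, Cd24a and Tspan8 (1 each). Of all 2333 raised probe sets on the array, 15.5% stayed high, and of the 618 past 4-fold in ΔS6, 30.7% did. Among the markers, 17 probe sets were at least 4-fold higher and the same count of 7 stayed high. The share of all probe sets grows with the size of the ratio in ΔS6, so the 7 of 19 was not read as a property of the markers. By gene, at the probe set of highest mean, 3 of the 7 raised members stayed high (Sox4, Prom1 and Cd24a), where 15.1% of 1318 raised genes did. With the probe sets of a gene averaged, 2 did, and Cd24a no longer passed (0.84 over WT and 0.91 over Alb-c-Myc). Epcam stayed high against WT only, by 1.19, and had 0.87 against Alb-c-Myc. Sox9, Elf3 and Ehf did not stay high by any probe set. With Alb-c-Myc as the only reference, a setting chosen after the data were seen, the same 7 probe sets stayed high. No others could, since the first rule already asked for 2-fold over Alb-c-Myc and only these 7 passed it.

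**Figure D2:**
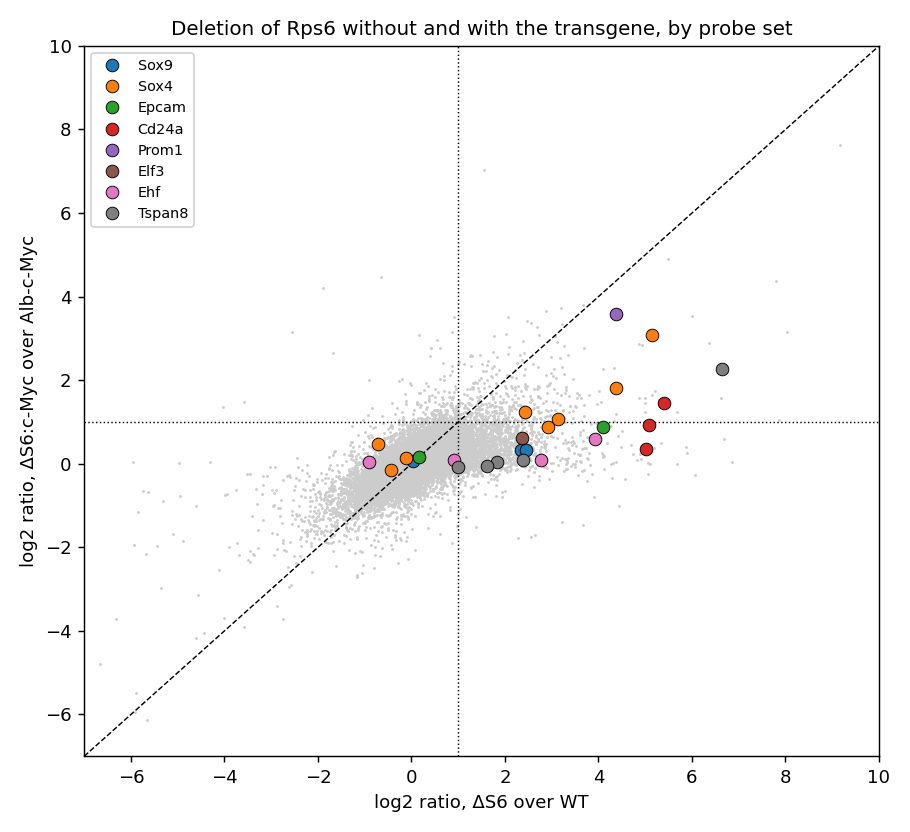
Log2 ratio of ΔS6 over WT (horizontal axis) and of ΔS6:c-Myc over Alb-c-Myc liver (vertical axis); coloured points are the 27 marker probe sets, grey points all other probe sets, the dashed line marks equal ratios and the dotted lines 2-fold. Prom1 lies nearest to the dashed line among the raised markers, at 4.38 and 3.59, the second resting on a dim value in Alb-c-Myc. The Cd24a probe sets lie far below the line.

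How much of the difference between ΔS6 and WT was also seen in the presence of the transgene varied widely between markers. Set against ΔS6 over WT, with which it shares no array, the log2 difference of ΔS6:c-Myc over Alb-c-Myc was 82.0% as large for Prom1 and ran from 29.9% at 1449370_at to 60.1% at 1433575_at for the 5 raised probe sets of Sox4. The value for Prom1 rests on a dim signal in Alb-c-Myc. Over WT, Prom1 had 2.66 in ΔS6:c-Myc and 4.38 in ΔS6, and Sox4 at 1433575_at had 3.03 and 5.14. On that reference Prom1 was not set apart from Sox4. Over Alb-c-Myc the size was 21.3% for Epcam, 26.4% for Elf3 and 6.88% to 26.8% for the Cd24a probe sets. For Ehf it was 2.94% at 1419475_a_at and 15.0% at 1451375_at. For Sox9 it was 13.7% at 1424950_at, and for Tspan8 it ran from -2.74% at 1420019_at to 34.1% at 1424649_a_at. The median over the 19 raised marker probe sets was 21.3%, and over all 2333 raised probe sets 28.8%.

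RefSeq promoter windows of GRCm38.p6 were matched by symbol for 5 of the 8 genes, and are shown so that those of genes with a probe set that stayed high (Sox4, Prom1 and Tspan8) can be read beside those of genes without one (Epcam and Elf3). Sox9, Cd24a and Ehf were not matched. Each line gives the 250 bases before an annotated start, 5′ to 3′ on the gene's strand, and Prom1 has 2 starts. Capitals mark matches, on either strand, to 8 searched motifs, which were the CCAAT box (CCAAT), the TATA box (TATAAA), the GC box (GGGCGG), the Myc E-box (CACGTG), an Ets motif (CGGAAG), a Sox motif (AACAAT), the AP-1 motif (TGANTCA) and the octamer (ATGCAAAT), the last added after the sequences were seen.
Sox4, chr13:28953700-28953949, minus strand: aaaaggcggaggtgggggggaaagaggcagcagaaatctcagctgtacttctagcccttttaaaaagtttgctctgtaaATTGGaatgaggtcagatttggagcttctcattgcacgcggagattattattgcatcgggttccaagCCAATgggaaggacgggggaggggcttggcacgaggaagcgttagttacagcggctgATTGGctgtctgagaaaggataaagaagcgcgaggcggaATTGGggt
Prom1, chr5:44101737-44101986, minus strand: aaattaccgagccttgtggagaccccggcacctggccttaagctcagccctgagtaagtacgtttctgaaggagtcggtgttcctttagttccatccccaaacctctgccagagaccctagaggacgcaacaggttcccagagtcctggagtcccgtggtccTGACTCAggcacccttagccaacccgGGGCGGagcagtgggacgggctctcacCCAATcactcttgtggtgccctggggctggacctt
Prom1, chr5:44094769-44095018, minus strand: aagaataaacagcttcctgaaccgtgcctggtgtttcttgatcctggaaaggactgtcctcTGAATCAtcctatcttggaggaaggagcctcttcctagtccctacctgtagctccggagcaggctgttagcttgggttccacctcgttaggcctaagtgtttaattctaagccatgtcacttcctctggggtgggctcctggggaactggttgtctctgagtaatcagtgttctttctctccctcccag
Tspan8, chr10:115817034-115817283, plus strand: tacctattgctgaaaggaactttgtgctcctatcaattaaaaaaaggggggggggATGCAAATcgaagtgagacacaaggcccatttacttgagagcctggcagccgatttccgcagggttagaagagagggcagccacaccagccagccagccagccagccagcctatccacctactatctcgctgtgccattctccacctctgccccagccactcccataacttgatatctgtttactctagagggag
Epcam, chr17:87635729-87635978, plus strand: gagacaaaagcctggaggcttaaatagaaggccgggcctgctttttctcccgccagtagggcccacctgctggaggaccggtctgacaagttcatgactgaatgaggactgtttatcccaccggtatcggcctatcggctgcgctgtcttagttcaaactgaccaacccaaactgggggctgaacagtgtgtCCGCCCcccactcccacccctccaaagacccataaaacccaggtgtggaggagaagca
Elf3, chr1:135258473-135258722, minus strand: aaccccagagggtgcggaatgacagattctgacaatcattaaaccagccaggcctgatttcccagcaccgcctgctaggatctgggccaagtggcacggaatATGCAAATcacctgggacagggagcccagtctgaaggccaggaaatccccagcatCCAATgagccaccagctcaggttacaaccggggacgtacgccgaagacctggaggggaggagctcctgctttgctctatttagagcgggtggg
The CCAAT box was found in 3 of these 6 windows, 4 times in that of Sox4, and in 33.8% of 32851 windows in the table. The GC box was found in 2 of 6 (32.7% of all), the AP-1 motif in 2 of 6, both of Prom1 (6.75% of all), and the octamer in 2 of 6, those of Elf3 and Tspan8 (1.60% of all). No match was found for the Myc E-box (6.02% of all), the TATA box (12.4%), the Ets motif (13.6%) or the Sox motif (9.42%). A match is a description of the letters in these windows and was not tied to the array values. No matches overlapped in these windows.

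Sox4 had the highest number of probe sets and the widest split among the transcription factors. The brightest, 1433575_at, had log2 values of 7.43 in WT, 12.58 in ΔS6, 7.37 in Alb-c-Myc liver and 10.46 in ΔS6:c-Myc liver. It was 35.3-fold above WT in ΔS6 and 8.52-fold above Alb-c-Myc in ΔS6:c-Myc. Both arrays with the deletion stood above both arrays without it. The probe set 1419157_at went from 5.90 in WT to 10.28 in ΔS6, and had 6.24 in Alb-c-Myc liver and 8.07 in ΔS6:c-Myc liver. The probe set 1419155_a_at had 7.49, 9.91, 7.44 and 8.67 in the same order, a log2 ratio of 2.42 for ΔS6 over WT. The other raised ones lay close to the limit for staying high. Probe set 1419156_at was inside it, with 1.17 over WT and 1.06 over Alb-c-Myc in ΔS6:c-Myc, and 1449370_at was outside it, with 0.97 and 0.88. Apart from 1433575_at, the raised probe sets share 1 representative sequence. The other 3 of the 8 probe sets of Sox4 were not raised, with ΔS6 over WT ratios of -0.72 (1443778_at), -0.13 (1455867_at) and -0.45 (1458332_x_at). Of these, 1443778_at and 1458332_x_at share a representative sequence that no raised one has, and 1443778_at was dim on all 4 arrays.

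Sox9, the defining transcription factor of the biliary lineage, was higher in ΔS6 and much closer to WT in ΔS6:c-Myc. Probe set 1451538_at had log2 values of 6.22 in WT, 8.68 in ΔS6, 6.46 in Alb-c-Myc liver and 6.78 in ΔS6:c-Myc liver. Probe set 1424950_at, from the same representative sequence, had 6.06, 8.39, 6.13 and 6.45. They were 5.48-fold and 5.04-fold above WT in ΔS6, and 1.25-fold above Alb-c-Myc in ΔS6:c-Myc by either. The ΔS6 array alone was clearly apart from the other 3. The probe set 1433889_at, from another sequence, had values from 4.94 to 5.00 on the 4 arrays. It was dim throughout, and was not read as a level of Sox9.

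The Ets factors Elf3 and Ehf were higher in ΔS6, Ehf by some probe sets only. Elf3, measured by 1 probe set, had log2 values of 7.03 in WT, 9.39 in ΔS6, 7.29 in Alb-c-Myc liver and 7.91 in ΔS6:c-Myc liver. It was 5.14-fold above WT in ΔS6 and 1.54-fold above Alb-c-Myc in ΔS6:c-Myc, below the 2-fold limit. For Ehf, probe set 1451375_at had 4.29 in WT, 8.22 in ΔS6, 4.37 in Alb-c-Myc liver and 4.96 in ΔS6:c-Myc liver, and 1419475_a_at had 4.67, 7.44, 4.69 and 4.77. Both were dim on 3 arrays and above 6 only in ΔS6, so their ratios over WT of 3.93 and 2.77 have an uncertain size. Probe set 1419474_a_at, which shares its representative sequence with 1419475_a_at, was dim on every array and had a ratio of 0.91. The fourth, 1447760_x_at, had 8.18 in WT, 7.29 in ΔS6, 7.77 in Alb-c-Myc liver and 7.80 in ΔS6:c-Myc liver, a ratio of -0.90, and an ending of _x_at marks probes that may bind other transcripts. Taking the probe set of highest single value in place of highest mean changed the ratio of Ehf from -0.90 to 3.93.

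Cd24a had the largest differences that all probe sets of a gene shared. Probe set 1448182_a_at had log2 values of 7.75 in WT, 13.15 in ΔS6, 7.53 in Alb-c-Myc liver and 8.98 in ΔS6:c-Myc liver. Probe set 1416034_at had 7.30, 12.38, 7.34 and 8.28, and 1437502_x_at had 4.63, 9.65, 4.60 and 4.94. In ΔS6 over WT they were 42.2-fold, 33.9-fold and 32.3-fold higher. All 3 put ΔS6 far above the other arrays, and ΔS6:c-Myc was 17.2-fold to 26.0-fold below ΔS6. They split at the 2-fold limit in ΔS6:c-Myc, where the ratios over WT and over Alb-c-Myc were 1.22 and 1.45 for 1448182_a_at, 0.98 and 0.94 for 1416034_at, and 0.31 and 0.34 for 1437502_x_at. The last was dim on 3 of the 4 arrays.

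Prom1 kept most of its difference in the presence of the transgene. Its single probe set had log2 values of 6.77 in WT, 11.15 in ΔS6, 5.84 in Alb-c-Myc liver and 9.43 in ΔS6:c-Myc liver. It was 20.8-fold above WT in ΔS6, 6.32-fold higher in ΔS6:c-Myc than in WT and 12.0-fold above Alb-c-Myc. The last ratio rests on a dim value in Alb-c-Myc. Both arrays with the deletion lay above both without it, as for Sox4, and no second probe set was there to compare.

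Epcam and Tspan8 depended on the probe set. For Epcam, 1416579_a_at had log2 values of 7.01 in WT, 11.11 in ΔS6, 7.32 in Alb-c-Myc liver and 8.19 in ΔS6:c-Myc liver, which is 17.2-fold above WT in ΔS6. The other, 1447899_x_at, was flat, at 7.94, 8.09, 8.05 and 8.22, from another representative sequence, and it was not dim. For Tspan8, 1424649_a_at went from 4.92 in WT to 11.57 in ΔS6, with 5.56 in Alb-c-Myc liver and 7.83 in ΔS6:c-Myc liver. Its log2 ratio of 6.65 over WT was the seventh largest of all 45037 probe sets, and since WT was dim there its size is uncertain. In ΔS6:c-Myc it was 2.27 above Alb-c-Myc on the log2 scale. The 3 probe sets from a second representative sequence, 1420017_at, 1420018_s_at and 1420019_at, were raised in ΔS6 by 1.82, 2.39 and 1.62. In ΔS6:c-Myc over WT, however, they had 0.10, 0.16 and 0.06. Of these, 1420018_s_at and 1420019_at were dim in WT. The fifth, 1455709_at, had 5.58 in WT and 6.57 in ΔS6, a ratio of 0.99, just under the limit, and -0.09 in ΔS6:c-Myc over WT. For Tspan8, as for Cd24a, 1 probe set alone stayed high, and that of highest mean, 1420017_at, did not.

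Across the 6 genes with several probe sets, those of 5 disagreed in ΔS6 over WT, in the sense that at least 1 was past 2-fold and at least 1 was not. Only those of Cd24a did not. Sox9 is among the 5 through its dim probe set alone, and 4 genes disagreed without the probe sets that were dim on all arrays. With repeated quantile normalization, or with Alb-c-Myc as the reference, 4 disagreed, Tspan8 being the gene that dropped out. In ΔS6:c-Myc over WT the probe sets of 4 genes disagreed, and for ΔS6:c-Myc over Alb-c-Myc those of 3. In Alb-c-Myc over WT those of 0 genes did. The range of the ΔS6 over WT ratios within a gene was widest for Sox4 (-0.72 to 5.14) and Tspan8 (0.99 to 6.65). For scale, the standard deviation of this ratio between probe sets of the same gene was 0.27 over 3379 genes with bright probe sets, which is a spread between probes and not between mice. Bright means a mean log2 value of at least 8, which most marker probe sets did not reach. The share of all genes whose probe sets disagree was not taken, so the 5 of 6 was not read as a property of the markers.

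Other genes of mature bile ducts were higher in ΔS6 in part. The list held 18 genes, of which 15 were measured. In ΔS6 over WT, 9 of 15 were at least 2-fold higher and 2 were lower (2.54% of all genes were), with a median log2 ratio of 1.33 against -0.05 over all genes. The biliary keratins Krt19 (5.33) and Krt7 (3.61), the tight junction proteins Cldn7 (4.49) and Cldn4 (2.12), the mucin Muc1 (4.30) and the RNA-binding protein Bicc1 (2.91) had the largest ratios. The 6 that were not raised included genes of bile duct transport and its control. These were the chloride channel Cftr (0.38), the secretin receptor Sctr (-0.10), the water channel Aqp1 (0.09), the anion exchanger Slc4a2 (0.02), the bile acid transporter Slc10a2 (-1.02) and the transcription factor Onecut1 (-1.20), which hepatocytes carry as well. The chosen probe set of Cftr was dim on all 4 arrays. All 6 genes were named after their values were seen. In ΔS6:c-Myc, 1 of the 15 stayed high, Bicc1, with 1.49 over WT and 1.13 over Alb-c-Myc. Its other 2 probe sets had 2.05 and 2.15 over WT. Of all 1318 raised genes, 15.1% stayed high.

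Genes of progenitor cells and of the ductular reaction gave a similar split. Of 10 measured, 5 were at least 2-fold above WT in ΔS6 and 0 were lower, with a median of 1.02. The receptor of the injury signal TWEAK, Tnfrsf12a, had log2 values of 8.79 in WT, 12.33 in ΔS6, 9.32 in Alb-c-Myc liver and 10.90 in ΔS6:c-Myc liver. The hyaluronan receptor Cd44 had 7.25, 11.63, 7.65 and 8.83. These 2 genes stayed high in ΔS6:c-Myc, Tnfrsf12a with 2.11 over WT and 1.58 over Alb-c-Myc, and Cd44 with 1.59 and 1.18. For Cd44 this rests on its chosen probe set alone. Its other probe sets ran from -0.23 to 4.27 in ΔS6 over WT. In ΔS6:c-Myc they ran from 0.05 to 1.58 over WT and from 0.05 to 0.94 over Alb-c-Myc, the last below the 2-fold limit. The integrin Itga6 (1.99), the filament protein Vim (1.98) and the keratin Krt23 (1.04) were higher in ΔS6 over WT and did not stay high, and Krt23 was below WT in ΔS6:c-Myc (-1.01). The RNA-binding protein Igf2bp3 had 1.00 in ΔS6 over WT, just under the limit, and 1.43 in ΔS6:c-Myc over WT. Its other probe sets ran from 0.29 to 1.53 in ΔS6 over WT, on both sides of the limit.

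Signals that act on duct formation were raised in part in ΔS6. Of 12 measured genes of the Notch and Hippo pathways, 6 were at least 2-fold higher and 0 lower in ΔS6 over WT (median 0.87). These were the Notch ligand Jag1 (1.85), the Notch target Hes1 (1.24) and the transcription factor Tead1 (1.15). The Hippo pathway targets Ankrd1 (3.33, dim in WT), Ccn2 (2.37) and Ccn1 (1.75) made up the rest. Not all probe sets of the 6 genes were raised. They ran from -0.06 to 1.85 for Jag1, 0.18 to 2.00 for Ccn1 and 0.10 to 1.15 for Tead1. In ΔS6:c-Myc, against WT and against Alb-c-Myc, 0 of the 12 were 2-fold higher, where 3.0% and 1.99% of all genes were. With shares that small, the 0 of 12 does not set these genes apart. Hippo factor Yap1 had 0.10 in ΔS6 over WT, and the Notch receptors Notch1 and Notch2 had 0.38 and 0.59.

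**Figure D3:**
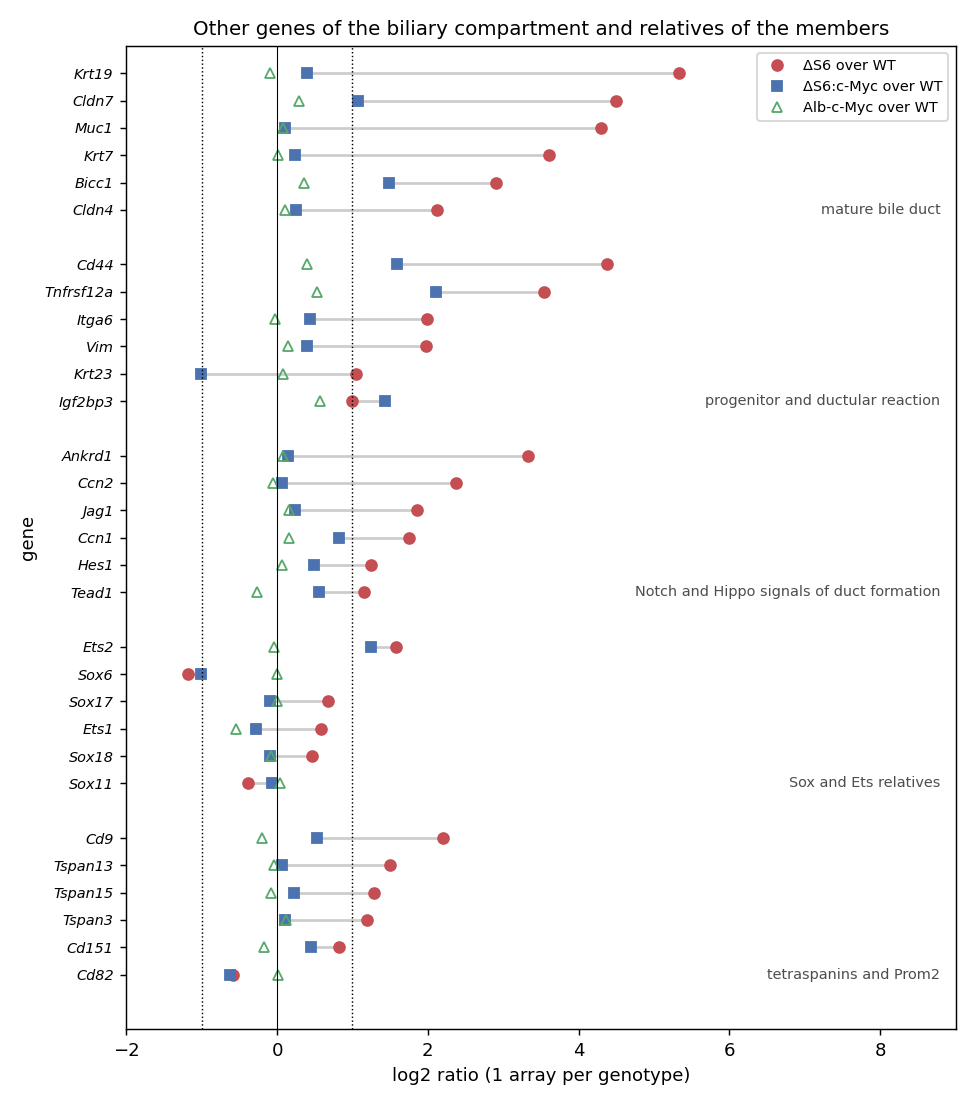
Log2 ratios over WT (horizontal axis) of up to 6 genes with the largest differences in ΔS6 from each of 5 lists (vertical axis); circles are ΔS6, squares ΔS6:c-Myc and open triangles Alb-c-Myc, 1 array each, and dotted lines mark 2-fold. Krt19 lies at 5.33 for ΔS6 but 0.40 for ΔS6:c-Myc, and Tnfrsf12a at 3.54 and 2.11.

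Relatives of the members within their protein families were mostly near WT. Of 17 Sox and Ets genes outside the 8 members, 1 was at least 2-fold above WT in ΔS6 (Ets2, 1.58) and 1 lower (Sox6, -1.19), with a median of 0.11. The other probe sets of Sox6 ran from -0.73 to -0.64, within the limit. Ets2 stayed high in ΔS6:c-Myc at its chosen probe set alone, with 1.24 over WT and 1.29 over Alb-c-Myc. Another Ets2 probe set had 1.10 in ΔS6 over WT, but 0.38 over WT and 0.68 over Alb-c-Myc in ΔS6:c-Myc. The last was dim on every array and had -0.24 in ΔS6 over WT. The endothelial factors Sox17 (0.67) and Sox18 (0.46) and Ets1 (0.58) were within 2-fold, as was Sox11 (-0.38), a relative of Sox4. Of 12 tetraspanins and Prom2, 4 were higher, namely Cd9 (2.20), Tspan13 (1.49), Tspan15 (1.28) and Tspan3 (1.19), and 0 lower (median 0.35). Prom2, the paralog of Prom1, had -0.09. None of the 12 stayed high with the transgene, where 15.1% of all 1318 raised genes did. With 4 raised, this was not read as a property of the list.

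Genes with the profile most like that of each member were sought among 9867 other genes that reached a log2 value of 8 on some array. Likeness was the Euclidean distance over the 4 arrays between log2 values centred on their own mean, with each gene at its probe set of highest mean. Nearest to Sox9 were Fstl1 (distance 0.12), a secreted glycoprotein, and Selenom (0.13). Nearest to Epcam were Emp1 (0.26), an epithelial membrane protein, and Cd44 (0.31). Nearest to Cd24a were Lcn2 (0.57), an iron-binding defence protein, and Cd14 (0.59), a receptor for bacterial lipopolysaccharide. Sox4 and Prom1 shared their nearest genes, the keratinocyte surface protein gene Ly6d (0.68 and 1.18) and the desaturase gene Scd2 (0.80 and 0.94), at larger distances. Ly6d had log2 values of 7.32 in WT, 13.31 in ΔS6, 7.51 in Alb-c-Myc liver and 11.04 in ΔS6:c-Myc liver. Elf3 lay nearest to Cd48 (0.15) and elastin, Eln (0.16), and Tspan8, at 1420017_at, nearest to Slc2a3 (0.06) and Oasl2 (0.07). The chosen probe set of Ehf lay nearest to Angptl6 (0.05) and Tmem126b (0.06). Over 4 values a small distance can arise by coincidence.

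Markers of other cells moved with the members, and their part in the members' values was not tested. In ΔS6 over WT, 5 of 7 neutrophil genes were at least 2-fold higher (median 3.21), with S100a9 at 5.90, S100a8 at 5.87 and Ngp at 3.64. Of 9 macrophage genes 8 were higher (median 1.91), among them Marco (5.29), C1qb (2.21) and Csf1r (1.57). Of 8 stellate cell and fibroblast genes 5 were higher (median 1.80), with the collagens Col1a1 at 2.49 and Col3a1 at 2.00, while Reln had 0.58. All 7 proliferation genes were higher (median 2.66), with Ccnb2 at 2.93, Mki67 at 2.89 and Cdk1 at 2.05. In Alb-c-Myc over WT, where 0 marker probe sets passed 2-fold, 5 of the 7 proliferation genes did (median 1.33, against 0.418% of all genes). In ΔS6:c-Myc over WT the medians were -0.09 for neutrophil, 0.62 for macrophage, 0.25 for stellate and 1.70 for proliferation genes.

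Lists of other tissues that carry some of the 8 markers were looked at as well. Of 7 intestinal epithelium genes, Vil1 (3.24), Cdh17 (2.11) and Lgals4 (2.05) were higher in ΔS6 than in WT, while the defining factors Cdx1 and Cdx2 had -0.17 and -0.27 and Fabp2 had -0.64. Of 10 exocrine pancreas genes, 9 were lower (median -2.72), among them Ctrb1 (-3.74), Cela2a (-3.95) and Cela1 (-1.44). The median log2 level of that list was 9.47 in WT, 6.57 in ΔS6, 7.59 in Alb-c-Myc liver and 6.83 in ΔS6:c-Myc liver. Of 5 B cell genes 0 passed 2-fold either way (median -0.19), with Cd79b at -0.08, Blk at -0.36 and Ms4a1 at -0.28. Of 7 erythroid genes 1 was higher, Tfrc (1.14), and 2 were lower, Alas2 (-1.15) and Klf1 (-1.75). The other Tfrc probe sets ran from 0.17 to 0.66. Of 6 endothelial genes 0 passed 2-fold (median 0.51), with Cdh5 at 0.79, Stab2 at -0.04 and Kdr at -0.33. The other Cdh5 probe set had 1.05, just past the limit. Of 9 hepatocyte genes 1 was lower, Cebpa (-1.11), and 0 higher (median -0.12), with Alb at -0.01, Apoa1 at -0.01 and Serpina1c at -0.20.

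Against Alb-c-Myc in place of the WT array, which was done after the values over WT had been seen, most of these list counts for ΔS6 were close to those above. At least 2-fold higher were 9 of 15 mature bile duct genes, 4 of 10 progenitor genes, 6 of 12 Notch and Hippo genes, 4 of 12 tetraspanins and Prom2, 5 of 7 neutrophil, 8 of 9 macrophage and 6 of 8 stellate genes, where 7.0% of all genes were higher and 2.23% lower. The pancreas and proliferation lists differed more. Of the 10 pancreas genes 2 were lower in place of 9, and of the 7 proliferation genes 4 were higher in place of 7.

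**Figure D4:**
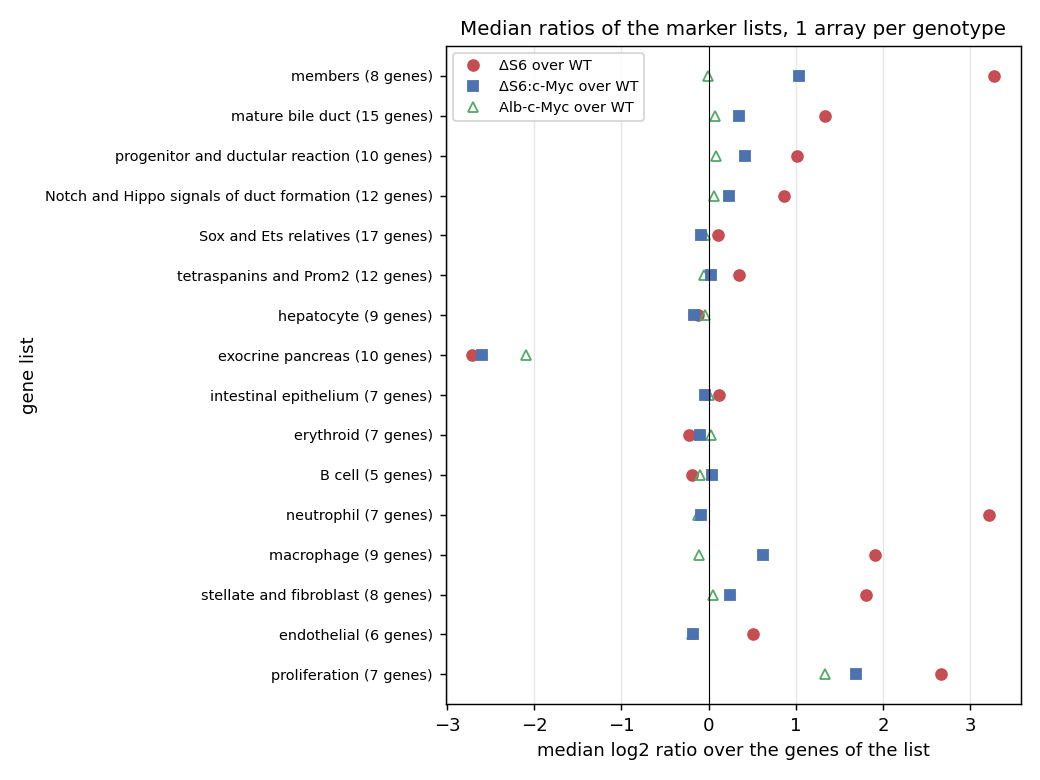
Median log2 ratio over WT (horizontal axis) of the 8 markers and of 15 other gene lists (vertical axis, with the number of measured genes); circles are ΔS6, squares ΔS6:c-Myc and open triangles Alb-c-Myc, 1 array each. The 8 markers lie at 3.28, 1.03 and -0.01, and the neutrophil list at 3.21, -0.09 and -0.12.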

How the data were processed

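Liver RNA of 3 mice per genotype was combined by the authors in equal amounts and hybridized to 1 Affymetrix mouse array per genotype. The authors summarized probe sets by RMA, normalized them by quantiles and deposited them on a log2 scale. RMA and affy are named in the submitters' processing notes, without versions in the sources used here. Array medians lay between 6.85 and 6.88. RMA shrinks differences of dim probe sets, so ratios with a log2 value below 6 (called dim) have an uncertain size.

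Log2 ratios were taken between 5 pairs of arrays. Of 45101 probe sets, 64 were controls, and 34958 had 1 gene symbol in the platform annotation, 932 several and 9211 none. Probe sets with several symbols were named only for Rps6. All 27 probe sets of the 8 members had 1 symbol, and the RefSeq gene table of GRCm38.p6 gave 27 of 27 the same symbol. A gene was represented by its probe set of highest mean. A ratio of 2-fold counted as higher or lower, and no test was run, since no array has a replicate. The depth of an array is not a count, and the number of arrays limits the precision.

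The members, lists and rules were chosen with earlier results of these data known. The genes named are the 8 members, up to 6 genes with the largest ΔS6 over WT ratios of 5 related lists, up to 3 genes of the highest level of each list of other cells, and the 2 nearest genes to each member. Yap1, Notch1, Notch2, Prom2, Cdh17, Cdx1, Cdx2, Cebpa and the bile duct genes that were not raised were added after their values were seen. Sex chromosome genes were a check of the arrays. Alternatives were median-centring, repeated quantile normalization, 4 other ways to take a gene's value, 1.5-fold and 4-fold limits and another reference array. Counting steps were tested on simulated data. Python 3.11.15, numpy 2.4.6, pandas 2.3.3 and matplotlib 3.10.9 were used.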

Additional observations from a re-analysis of the deposited data

Results flagged for a closer look

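For 5 of the 27 marker probe sets, the deletion of Rps6 went with ratios of opposite sign without and with the transgene. The difference between the 2 contrasts was not tested, and each value rests on 1 array per genotype. Of all 45037 probe sets, 30.2% had opposite signs, against 18.5% of the 27. For Sox4, 1443778_at had a log2 ratio of -0.72 in ΔS6 over WT and 0.47 for ΔS6:c-Myc over Alb-c-Myc, from values of 4.90 to 5.62. The Sox4 probe set 1455867_at had -0.13 and 0.13. For Ehf, 1447760_x_at had -0.90 and 0.03. For Tspan8, 1420019_at had 1.62 and -0.04, and 1455709_at had 0.99 and -0.09. Of these 5, only 1420019_at passed 2-fold, in ΔS6 over WT. In 4 the value with the transgene was smaller in size than the spread between bright probe sets of a gene (0.24).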

How the results depend on the processing

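No paired analysis was possible because each genotype has a single array. Median-centring and repeated quantile normalization kept the counts of raised markers and of those that stayed high within 1.5 times, with 19 and 20 of 27 raised in ΔS6. With all probe sets of a gene averaged, or those that were not dim, 2 in place of 4 members were at least 2-fold higher in ΔS6:c-Myc over WT. At 1.5-fold, 5 members and 12 probe sets stayed high, and the same numbers, 5 and 12, were higher for ΔS6:c-Myc over Alb-c-Myc, with 1 probe set higher in Alb-c-Myc over WT and 1 in ΔS6:c-Myc over ΔS6. At 4-fold, 3 probe sets stayed high, 3 were higher for ΔS6:c-Myc over Alb-c-Myc, and 2 members and 4 probe sets were higher in ΔS6:c-Myc over WT. The shares of all probe sets under these 1.5-fold and 4-fold rules were not taken. These counts show only how the calls shift with the limit. The probe set of highest single value gave 4 members that stayed high, Tspan8 (2.90 over WT) being added, and 2 stayed high with the mean of all probe sets, with the mean of those not dim and at 4-fold. With the Alb-c-Myc array as the reference, chosen after seeing the data, 2 pancreas genes were lower (9 over WT), and 4 proliferation genes (7), 2 Sox and Ets relatives (1), 1 endothelial gene (0) and 0 erythroid genes (1) were higher. Of the ratios of single members under the alternatives, 59 moved by more than the spread between bright probe sets and 189 did not. Many of the 189 could not move. Prom1 and Elf3 have 1 probe set each, so other ways to take a gene's value return the same ratio. Median-centring shifts ratios little, since array medians lay between 6.85 and 6.88. The tally is therefore no measure of robustness. For Ehf in ΔS6 over WT, -0.90 became 3.93 without _x_at and _s_at probe sets and 1.68 as the mean of all. The causes were not tested. No array could be left out. Dim signals limit the size of ratios of Ehf, Prom1, 1419157_at of Sox4 and 1437502_x_at of Cd24a. The same holds for 1424649_a_at, 1420018_s_at, 1420019_at and 1455709_at of Tspan8.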
